A study of Mus musculus with 12 samples.

Results

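The NRF2 and redox defence genes described here were 43 members, chosen by symbol from the 15720 gene identifiers with a measured expression value in a mouse hepatic stellate cell line. They comprise the stress factor NRF2 and its sensor KEAP1, the enzymes of glutathione synthesis and use, the thioredoxin and peroxiredoxin system, superoxide dismutases and catalase, enzymes that supply NADPH, and ferritin. Of the 43, 42 had a mean of at least 0.5 FPKM (fragments per kilobase of transcript, relative to library size) and were tested. The exception was Gpx3, the secreted glutathione peroxidase, which was listed at 0 in 9 libraries and at 0.03 to 0.08 FPKM in the scrambled siRNA libraries with TGFb.

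EMS404 cells are hepatic stellate cells of C57Bl6 mice, immortalized with SV40 and carrying human TLR4, and all groups share these features. Cells received a scrambled siRNA or an siRNA against Bmal1, a core transcription factor of the circadian clock, and 48 h later vehicle or 10 ng/mL TGFb for 24 h. TGFb is the cytokine that turns stellate cells into matrix-producing myofibroblasts. RNA was sequenced from 4 groups of 3 libraries: scrambled siRNA with vehicle, scrambled siRNA with TGFb, Bmal1 siRNA with vehicle and Bmal1 siRNA with TGFb. It is 1 cell line, and the series text calls the triplicates biological. No label ties them to separate cultures, so each p-value measures only how far these samples spread, and that spread may be technical.

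NRF2, encoded by Nfe2l2, is a transcription factor that KEAP1 holds in the cytoplasm and marks for degradation until oxidants or electrophiles modify KEAP1. Released NRF2 pairs with small MAF proteins at antioxidant response elements and raises genes for glutathione synthesis, conjugation and recycling. Its activity is set mainly at the protein level, so transcript levels do not measure it. Glutathione is made by the glutamate-cysteine ligase (Gclc and Gclm) and by Gss, spent by peroxidases and transferases, and regenerated by Gsr with NADPH. In the liver, stellate cells face oxidants both from neighbouring cells and from their own response to TGFb.

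The antioxidant response element has the core TGACNNNGC, and the promoter windows of the members were searched for these letters on both strands. The windows, from RefSeq on GRCm38.p6, run from 250 bases before to 50 bases after each annotated start. Windows were found for 37 of the 43 members, 48 in all, and 11 of them (22.9%) held a match, 1 each in 11 members. Of all 32851 windows, 4071 (12.4%) held one. The E-box CACGTG, the sequence that BMAL1 and CLOCK bind, was in 1 of the 48 windows (2.08%, Prdx4) and in 7.15% of all windows. A match describes letters only and is no evidence of binding. The 11 matches are shown because they include the regulator itself and 4 of the 8 members called in the interaction test described below (Nfe2l2, Mgst1, Gstm5 and Prdx1). Each is printed with 10 bases on either side, read on the strand that spells the core, with the core in capitals.
Nfe2l2: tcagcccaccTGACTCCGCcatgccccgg
Gclm: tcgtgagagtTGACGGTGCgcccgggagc
Prdx1: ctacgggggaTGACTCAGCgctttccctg
Me1: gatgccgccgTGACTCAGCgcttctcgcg
Mgst1: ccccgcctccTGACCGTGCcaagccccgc
Gstm5: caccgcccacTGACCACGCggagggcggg
Sod1: ggcctgagtcTGACCACGCccaccttggc
Txnrd1: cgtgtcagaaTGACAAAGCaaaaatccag
Srxn1: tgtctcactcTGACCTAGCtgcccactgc
Pgd: atttcagagcTGACATTGCactgatcgga
G6pdx: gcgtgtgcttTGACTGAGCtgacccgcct

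The sites for Prdx1 and Me1 share the same 9 letters, which also contain TGACTCA, the sequence bound by AP-1 factors. Those for Gstm5 and Sod1 share another 9. With the annotated start base counted as 0, the Gclm core lay at -134 to -126 (chr3:122245413-122245441 with its flanks) and the Prdx1 core at -133 to -125 (chr4:116685456-116685484). The Mgst1 core (chr6:138140461-138140489) and the Sod1 core (chr16:90220696-90220724) both lay at -56 to -48, the Gstm5 core (chr3:107895802-107895830) at -42 to -34, and the Nfe2l2 core (chr2:75704885-75704913) at -240 to -232. Of the 11 cores, 4 (Gclm, Prdx1, Sod1 and Txnrd1) lay outside every annotated exon, and the other 7 overlapped an exon of some transcript model. The upstream sequences of Prdx1 and Gclm, up to the first annotated exon base, show the core in its setting. They are given in the direction of the gene, with the match in capitals, so that it appears as its reverse complement.
Prdx1, chr4:116685349-116685543, plus strand: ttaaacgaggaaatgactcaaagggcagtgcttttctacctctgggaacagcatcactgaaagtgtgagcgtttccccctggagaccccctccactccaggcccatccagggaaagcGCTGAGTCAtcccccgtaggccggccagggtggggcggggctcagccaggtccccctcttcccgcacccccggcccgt
Gclm, chr3:122245307-122245556, plus strand: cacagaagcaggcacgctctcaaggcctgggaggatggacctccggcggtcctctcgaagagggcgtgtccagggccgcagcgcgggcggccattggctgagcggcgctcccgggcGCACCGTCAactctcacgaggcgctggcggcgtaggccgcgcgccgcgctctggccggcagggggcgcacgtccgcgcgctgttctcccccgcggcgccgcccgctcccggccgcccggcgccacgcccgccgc

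FPKM totals over identified genes ran from 439057 to 477551 per library, with 13673 to 13975 genes above 0. The sources used here do not give the read depth, so no counting error can be attached to a value. Bmal1 transcript (Arntl) averaged 5.18 FPKM with scrambled siRNA and 3.79 FPKM with its siRNA under vehicle, 26.9% lower, and 10.7 against 4.35 FPKM under TGFb, 59.3% lower. The second library of Bmal1 siRNA with TGFb stood apart from its group. On the first principal component it lay at -5.13, against 12.99 and 8.40 for its 2 companions, -17.76 to -15.42 for the 6 vehicle libraries and 27.16 to 29.85 for scrambled siRNA with TGFb. Array weights, which down-weight libraries that fit poorly, were lowest for it (0.26). Next lowest was the first library of scrambled siRNA with vehicle (0.32), which also had the highest FPKM total, 477551. Estimates without the second library of Bmal1 siRNA with TGFb are given for some of the results that rest on it. Of 14 stellate cell markers, 12 were in the table and 10 averaged at least 0.5 FPKM, with Col1a1 at 2784 FPKM with scrambled siRNA and vehicle. The stellate markers Gfap and Ngfr stayed under 0.5 FPKM in every library, and Lrat and Reln are not analysed here.

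Against vehicle in cells with scrambled siRNA, TGFb lowered most of the redox genes, and the glutathione transferases fell furthest. Gstm1, a cytosolic mu-class transferase that conjugates glutathione to electrophiles, kept 23.6% of its vehicle level, and Mgst1, a microsomal transferase with peroxidase activity, kept 24.7%. Sod3, the secreted superoxide dismutase of the extracellular matrix, went the other way and rose 2.66-fold. In all, 26 of the 42 tested members fell and 3 rose. Of all 11208 genes tested, 45.5% were called in this comparison, 29.1% lower and 16.4% higher. The calls are from limma on log2(FPKM + 1), with a Benjamini-Hochberg adjusted p under 0.05 over all tested genes. All TGFb libraries lay below all vehicle libraries in 28 members and above them in 5. Over all genes 55.0% had groups that did not overlap, 34.7% lower and 20.3% higher. The median log2 change was -0.25 over the members and -0.05 over all genes. With median-of-ratios scaling the members split into 21 lower and 4 higher, the fourth being Txnrd1, and the share of higher among all called genes went from 36.1% to 49.1%. That share was 45.6% with libraries scaled to equal totals and 47.5% with quantile normalization. Without the first library of scrambled siRNA and vehicle, 21 members were lower and 4 higher, with 3016 of all genes lower and 1680 higher.

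**Figure D1:**
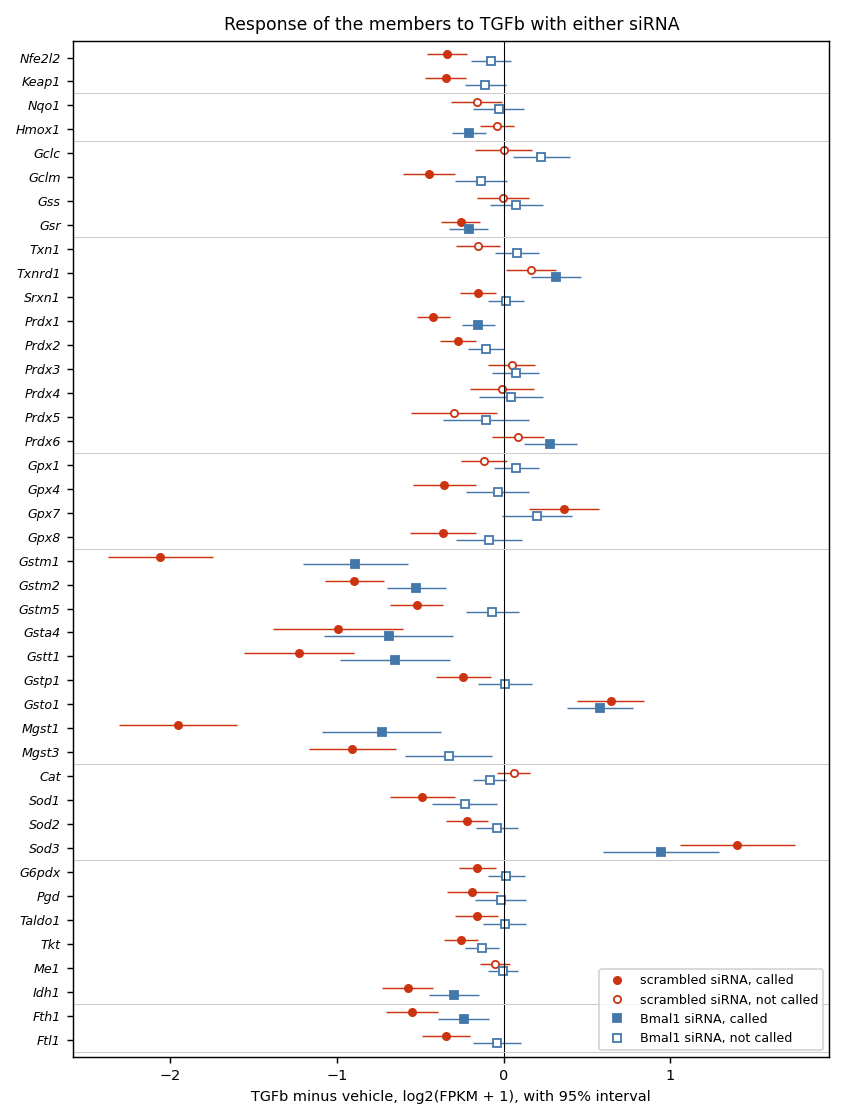
Log2 change of each tested member, TGFb minus vehicle on the log2(FPKM + 1) scale with its 95% interval, for scrambled siRNA (circles) and Bmal1 siRNA (squares); filled symbols were called and grey lines separate the roles. With scrambled siRNA, 26 of 42 members were called lower, led by Gstm1 at -2.06 and Mgst1 at -1.95, and 3 were called higher, led by Sod3 at 1.40.

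The regulator and its sensor moved together. Nfe2l2 read 43.2, 46.0 and 48.3 FPKM with scrambled siRNA and vehicle and 36.8, 36.0 and 35.3 FPKM with TGFb. Its change was -0.34 on the log2 scale (SE 0.055, adjusted p = 0.000263). Keap1, which targets NRF2 for degradation, went from 23.5, 22.3 and 22.7 to 17.3, 18.8 and 17.1 FPKM, a change of -0.35 (SE 0.057, adjusted p = 0.000256). For both genes every TGFb library lay below every vehicle library. After Bmal1 siRNA neither was called, at -0.08 for Nfe2l2 (adjusted p = 0.378) and -0.11 for Keap1 (adjusted p = 0.199). Nfe2l2 then read 45.7, 48.4 and 48.1 FPKM with vehicle and 43.1, 48.6 and 43.4 FPKM with TGFb, and these groups overlapped.

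Nqo1 and Hmox1, the NAD(P)H quinone dehydrogenase and the haem oxygenase that often serve as readouts of NRF2, were not called with scrambled siRNA. Nqo1 changed by -0.16 (95% interval -0.31 to -0.01, adjusted p = 0.0771), from 9.37 to 9.85 FPKM with vehicle to 8.33 to 8.93 FPKM with TGFb. Hmox1 changed by -0.04 (interval -0.14 to 0.07, adjusted p = 0.546). After Bmal1 siRNA, Hmox1 read 43.2, 45.4 and 43.9 FPKM with vehicle and 38.9, 38.2 and 37.1 FPKM with TGFb, and it fell by 0.21 on the log2 scale (adjusted p = 0.00862). The 3 libraries with both Bmal1 siRNA and TGFb were the lowest of the 12 for Hmox1, and here replicate 2 lay between its companions.

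Glutathione synthesis was lowered at the modifier subunit only among its 3 genes, under each scaling tried. Gclm, the subunit that makes glutamate-cysteine ligase more efficient, went from 24.1, 24.9 and 21.5 FPKM to 16.7, 18.2 and 15.9 FPKM with TGFb, a change of -0.45 (SE 0.072, adjusted p = 0.000225). The catalytic subunit Gclc stayed between 12.1 and 13.6 FPKM in all 6 scrambled libraries, with a change of 0.00 (interval -0.17 to 0.17). Glutathione synthetase, Gss, also changed by 0.00 (interval -0.16 to 0.16). Of its 5915 exon bases, 395 overlap Acss2 on the other strand, and without stated strand use reads from that stretch could belong to either gene. Gsr, which regenerates glutathione with NADPH, fell with either siRNA, by 0.26 on the log2 scale with scrambled (adjusted p = 0.00176) and by 0.21 with Bmal1 siRNA (adjusted p = 0.0175). Gclm after Bmal1 siRNA changed by -0.13 (adjusted p = 0.226), with 22.6, 19.1 and 19.6 FPKM against 18.1, 19.1 and 18.4 FPKM. Its vehicle groups overlapped each other as well.

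Of the 9 members that form the thioredoxin and peroxiredoxin system, 3 fell with TGFb under scrambled siRNA and none rose. That is near the share over all genes, 29.1% called lower, with 16.4% called higher. Prdx1, an abundant cytosolic peroxiredoxin that reduces hydrogen peroxide, read 201, 181 and 187 FPKM with vehicle and 138, 145 and 140 FPKM with TGFb (log2 change -0.42, SE 0.046, adjusted p = 7.81e-06). Prdx2, its cytosolic relative, changed by -0.27 (adjusted p = 0.000694), and its exons share 177 bases with Rnaseh2a. Srxn1, the sulfiredoxin that repairs overoxidized peroxiredoxins, changed by -0.15 (adjusted p = 0.0229). That call ended with each of the 3 other scalings, as with median-of-ratios scaling (-0.10, adjusted p = 0.127). The mitochondrial Prdx3 and the reticulum Prdx4 changed by 0.05 and -0.01, neither called. Prdx5 (-0.30) and Txn1 (-0.15) were not called either, though some alternative fits called each of them lower. Prdx5 read 160, 134 and 131 FPKM with vehicle and 99.9, 124 and 122 FPKM with TGFb, without overlap. Its exons share 409 bases with Trmt112. Thioredoxin reductase, Txnrd1, was higher in every TGFb library than in every vehicle library, at 48.9, 42.8 and 42.5 against 41.8, 38.9 and 38.6 FPKM, without passing the test (0.16, adjusted p = 0.0721). It passed with each of the 3 other scalings (0.21 to 0.22). After Bmal1 siRNA Txnrd1 rose by 0.31 on the log2 scale (adjusted p = 0.00721) and Prdx6, which also acts on phospholipid peroxides, by 0.28 (adjusted p = 0.0169). Txnrd1 then read 37.9, 37.3 and 35.2 FPKM with vehicle and 48.4, 41.4 and 48.6 FPKM with TGFb.

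The glutathione peroxidases split. Gpx4, the selenoenzyme that reduces lipid peroxides in membranes and restrains ferroptosis, changed by -0.36 (adjusted p = 0.00478), from 312, 262 and 279 FPKM to 202, 231 and 232 FPKM. Gpx8, of the endoplasmic reticulum, changed by -0.36 (adjusted p = 0.00607), while Gpx7 of the same compartment rose by 0.36 (adjusted p = 0.00816) from 6.13, 7.18 and 6.61 FPKM to 7.51, 10.4 and 8.78 FPKM. Gpx1, the main cytosolic peroxidase, was not called (-0.12, adjusted p = 0.149). None of the 4 tested peroxidases was called after Bmal1 siRNA, where 19.0% of all genes were called. Of the stretches of 50 bases in Gpx4 transcripts, 51.4% also occur in the pseudogene Gpx4-ps2, so its values are uncertain.

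Among the 9 transferases, 8 fell with TGFb under scrambled siRNA and 1, Gsto1, rose, beside 29.1% and 16.4% of all genes. Gstm1 read 209, 185 and 199 FPKM with vehicle and 42.5, 48.8 and 48.7 FPKM with TGFb (log2 change -2.06, SE 0.15, adjusted p = 2.19e-07). Mgst1 read 54.3, 53.6 and 60.5 FPKM with vehicle and 11.6, 16.3 and 13.6 FPKM with TGFb (-1.95, SE 0.17, adjusted p = 9.28e-07). The theta-class Gstt1 went from 28.2, 27.6 and 28.6 FPKM to 9.01, 13.9 and 11.9 FPKM (-1.23, adjusted p = 2.57e-05). In each case the highest TGFb library lay below the lowest vehicle library by more than the spread of either group. Gsta4, which detoxifies the lipid peroxidation product 4-hydroxynonenal, changed by -0.99 at a low level, 3.75 ± 0.66 to 1.40 ± 0.50 FPKM (SD, n = 3). Mgst3 changed by -0.91, Gstm2 by -0.90 and Gstm5 by -0.52. Gstp1, the most abundant transferase at a mean of 392 FPKM over the 12 libraries, changed least, by -0.24, and lost its call with median-of-ratios scaling (adjusted p = 0.0658). Gsto1, an omega-class enzyme with thioltransferase activity, rose from 88.7, 74.6 and 70.4 FPKM to 124, 118 and 123 FPKM (0.64, adjusted p = 8.53e-05).

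**Figure D2:**
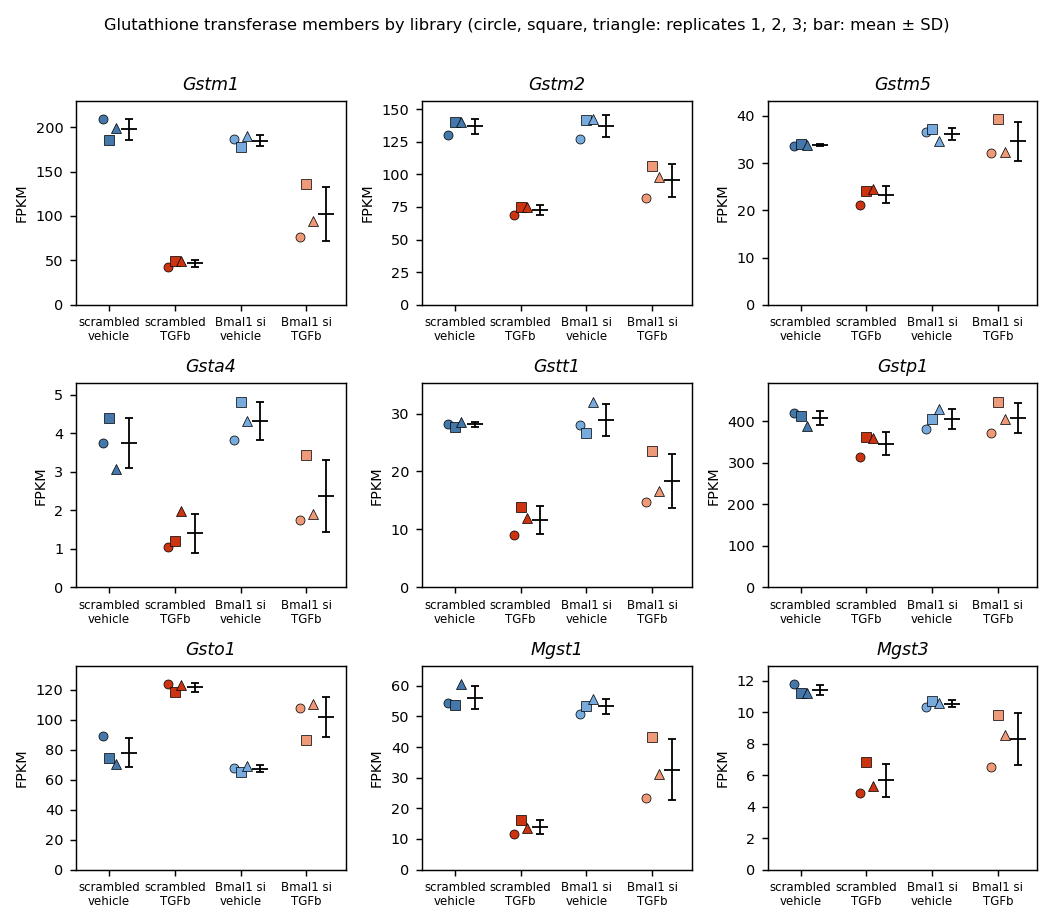
FPKM of the 9 transferase members in each library, by group, on axes that start at 0; symbols mark replicates 1 (circle), 2 (square) and 3 (triangle) and the bars are mean ± SD. Gstm1 with TGFb lay at 42.5 to 48.8 FPKM after scrambled siRNA and at 76.0, 136 and 94.8 FPKM after Bmal1 siRNA, where replicate 2 was the highest of its group in 8 of the 9 genes and the lowest in Gsto1.

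The 3 mu-class members lie close together on chromosome 3 of mm10, with Gstm5 at 107895821 to 107898686 (plus strand), Gstm2 at 107981702 to 107986453 and Gstm1 at 108012255 to 108017973 (both minus). Neighbours of one cluster differed in size of change, from -0.52 for Gstm5 to -2.06 for Gstm1. Gstm1 shares 19.9% of its 50-base stretches with other genes' transcripts, most of them with the pseudogene Gstm2-ps1, and Gstp1 shares 51% with Gstp2, so reads could be split between copies.

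After Bmal1 siRNA, TGFb lowered 5 of the 9 transferases and raised 1, and 3 were not called. Over all genes, 10.1% were called lower and 8.90% higher. The difference in response between the siRNAs passed its own test in 5 of the 9, described below with the other members. Of all genes, 8.86% were called more positive and 5.52% more negative in that test. Gstm1 read 187, 178 and 190 FPKM with vehicle and 76.0, 136 and 94.8 FPKM with TGFb, keeping 55.3% of its vehicle level (log2 change -0.89, SE 0.15, adjusted p = 0.0012). Mgst1 read 50.7, 53.4 and 55.8 FPKM with vehicle and 23.3, 43.3 and 31.3 FPKM with TGFb, keeping 61.3% (-0.73, adjusted p = 0.00788). The vehicle and TGFb groups did not overlap for either gene, and replicate 2 gave the highest TGFb value of both. Without that library the changes were -1.11 for Gstm1 and -0.95 for Mgst1. Gstm5 changed by -0.07 (adjusted p = 0.563), with 36.5, 37.3 and 34.7 FPKM against 32.0, 39.2 and 32.4 FPKM. Mgst3, at -0.33, was not called with all libraries (adjusted p = 0.0731) and was called without replicate 2 (-0.45, adjusted p = 0.0098). Gsto1 rose by 0.58 on the log2 scale, to 108, 86.1 and 111 FPKM from 67.7, 64.9 and 69.1 FPKM.

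The superoxide dismutases parted by compartment. Sod3 went from 52.7, 40.1 and 39.8 FPKM to 114, 125 and 114 FPKM with TGFb under scrambled siRNA (1.40, SE 0.16, adjusted p = 1.17e-05). Cytosolic Sod1 went from 226, 202 and 208 to 144, 161 and 147 FPKM (-0.49, adjusted p = 0.000682), and mitochondrial Sod2 changed by -0.22 (adjusted p = 0.00772). Groups did not overlap for any of the 3. Of the Sod1 transcripts' 50-base stretches, 23.1% recur in the predicted gene Gm8566. Catalase, Cat, which breaks down hydrogen peroxide in peroxisomes, was not called (0.06, adjusted p = 0.308). After Bmal1 siRNA Sod3 rose by 0.95 (adjusted p = 0.00142), from 37.1, 32.97 and 36.9 to 86.4, 49.9 and 77.9 FPKM, with replicate 2 lowest, and by 1.18 without that library.

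Ferritin and some genes of NADPH supply were lower as well with TGFb under scrambled siRNA. Of 6 NADPH genes, 5 fell and 1, Me1 (malic enzyme), was not called. Over all genes, 29.1% were called lower and 16.4% higher. Idh1, the cytosolic isocitrate dehydrogenase, changed most, from 39.0, 37.8 and 37.4 to 24.2, 26.6 and 25.0 FPKM (-0.58, SE 0.07, adjusted p = 2.12e-05). The pentose phosphate genes Tkt (-0.26), Pgd (-0.19), Taldo1 (-0.16) and G6pdx (-0.16) changed less. The calls of Pgd, Taldo1 and G6pdx ended with each of the 3 other scalings (adjusted p 0.148 to 0.193 with median-of-ratios scaling). Leaving out 1 library at a time ended them in 9, 8 and 4 of 12 cases. G6pdx shares 418 exon bases with Ikbkg. The ferritin heavy chain Fth1, which stores iron in a safe form, went from 1343, 1186 and 1221 to 814, 913 and 835 FPKM (-0.55, adjusted p = 3.77e-05), and the light chain Ftl1 changed by -0.34 (adjusted p = 0.000883). Ftl1 shares 69.8% of its 50-base stretches with other transcripts, mainly Ftl1-ps1, and its level is uncertain. After Bmal1 siRNA Idh1 fell by 0.30 on the log2 scale (adjusted p = 0.00982) and Fth1 by 0.24 (adjusted p = 0.033), and no other gene of the 2 groups was called.

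**Figure D3:**
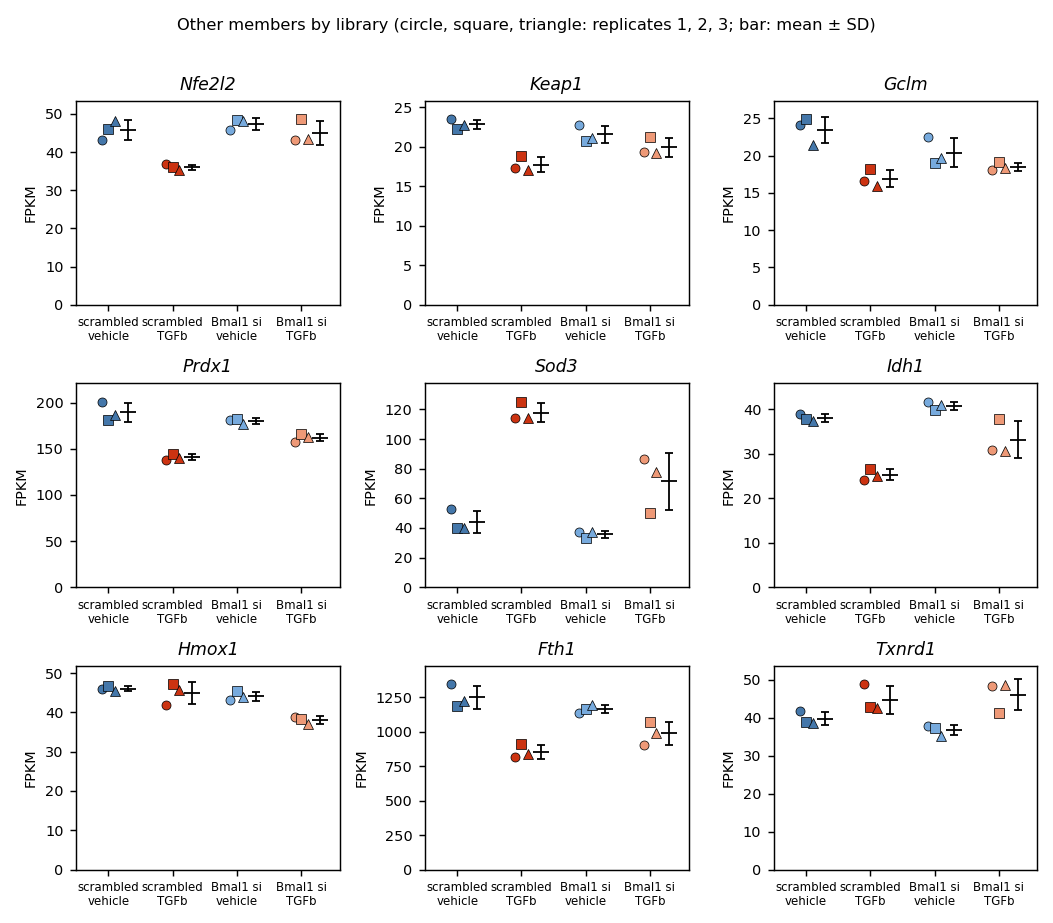
FPKM of 9 further members in each library, by group, on axes that start at 0, with replicates as circle, square and triangle and bars for mean ± SD. With scrambled siRNA, TGFb lowered Nfe2l2, Keap1, Gclm, Prdx1, Idh1 and Fth1 and raised Sod3, while Hmox1 was lowest with Bmal1 siRNA and TGFb, at 37.1 to 38.9 FPKM.

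With Bmal1 siRNA as a whole, TGFb lowered 10 members and raised 4, of 42. Among all genes 19.0% were called, 10.1% lower and 8.90% higher, and the median change was -0.05 over the members and 0.00 over all genes. The groups did not overlap for 13 members lower and 6 higher, against 35.4% of all genes, 17.9% lower and 17.6% higher. The 10 called lower were Gstm1, Mgst1, Gsta4, Gstt1, Gstm2, Idh1, Fth1, Gsr, Hmox1 and Prdx1, and the 4 called higher were Sod3, Gsto1, Txnrd1 and Prdx6. Without replicate 2 of the TGFb group, 13 were lower and 5 higher, with Mgst3 (-0.45), Sod1 (-0.36) and Tkt (-0.15) added below and Gclc (0.32) above.

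Under vehicle none of the 42 members was called between Bmal1 and scrambled siRNA by limma, and 6 had an unadjusted p under 0.05. Of all genes, 0.660% were called, 0.366% lower and 0.294% higher, and 2433 of 11208 had an unadjusted p under 0.05. The groups did not overlap for 8 members lower and 3 higher, against 31.7% of all genes, 15.1% lower and 16.7% higher. The smallest adjusted p among the members was 0.117, for Ftl1, which changed by -0.20 (interval -0.35 to -0.06), from 1924, 1689 and 1658 to 1537, 1436 and 1594 FPKM. Gstm1 changed by -0.09 (interval -0.41 to 0.22) and Mgst1 by -0.07 (interval -0.43 to 0.28). Nfe2l2 changed by 0.05 (interval -0.07 to 0.17). With array weights, which down-weight libraries that fit poorly, Cat was called higher (0.12) and Ftl1 lower (-0.17).

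Under TGFb the siRNA groups separated, and 7 of the 10 members that were higher with Bmal1 siRNA were transferases. The highest changes were Mgst1 at 1.15 (SE 0.17, adjusted p = 0.000389), Gstm1 at 1.08 (SE 0.15, adjusted p = 0.000257), Gstt1 at 0.61 (adjusted p = 0.0124) and Gstm5 at 0.55 (adjusted p = 0.000242). Mgst3 (0.47), Gstm2 (0.37) and Gstp1 (0.24) followed, with Idh1 (0.37), Nfe2l2 (0.31) and Prdx1 (0.20) from other roles. Every Bmal1 siRNA library lay above every scrambled one for these genes except Mgst3, whose lowest value, 6.51 FPKM, was under the highest scrambled value, 6.83 FPKM. Sod3 (-0.75, adjusted p = 0.00531) and Hmox1 (-0.23, adjusted p = 0.00454) were lower. In all 10 of 42 members were higher and 2 lower, while among all genes 23.2% were called, 16.0% higher and 7.16% lower. The groups did not overlap for 17 members higher and 3 lower, against 39.2% of all genes, 28.1% higher and 11.0% lower. The median was 0.12 over the members and 0.06 over all genes.

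Leaving out replicate 2 of the Bmal1 siRNA TGFb group kept 9 of the 10 higher calls and both lower ones, with Gstm1 at 0.85, Mgst1 at 0.93, Gstt1 at 0.42 and Sod3 at -0.51. The call lost was Gstp1 (0.17, adjusted p = 0.127). With median-of-ratios scaling 8 members were higher and 3 lower, Gsto1 (-0.33) being added below, and the share of higher among all called genes went from 69.1% to 46.4%. Gstm1 stood at 1.01 and Mgst1 at 1.09 in that fit. Nfe2l2 stood at 0.25 (adjusted p = 0.00687).

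The test of the difference itself, the interaction of siRNA and TGFb, called 8 members, all with a response that was more positive after Bmal1 siRNA. They were Mgst1 (1.22), Gstm1 (1.17), Mgst3 (0.58), Gstm5 (0.45), Gstm2 (0.37), Ftl1 (0.31), Prdx1 (0.27) and Nfe2l2 (0.26). In all 8 the log2 change with TGFb was negative after scrambled siRNA and nearer 0 after Bmal1 siRNA, as in Gstm5 with -0.52 against -0.07 and Ftl1 with -0.34 against -0.04. Among all genes 14.4% were called, 8.86% more positive and 5.52% more negative. The estimate was above 0 in 37 of the 42 members and in 62.3% of all genes, with medians of 0.19 and 0.06. Below 0 were Sod3 (-0.46), Hmox1 (-0.17), Gpx7 (-0.16), Cat (-0.14) and Gsto1 (-0.06), none of them called.

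**Figure D4:**
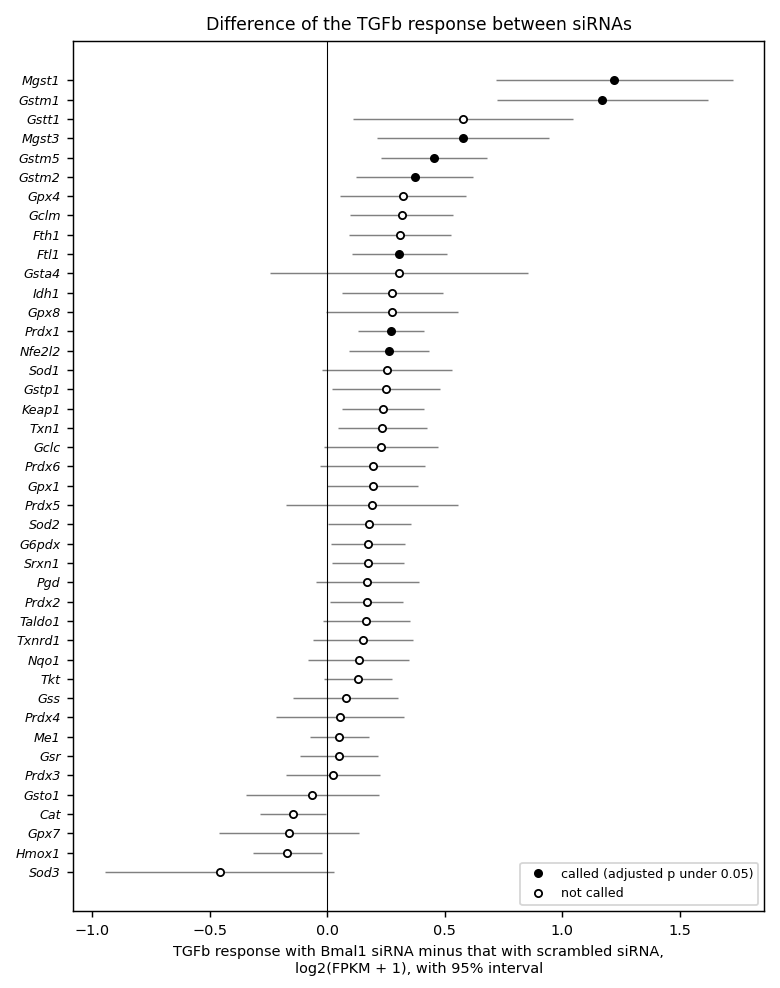
Difference of the TGFb response between siRNAs for each tested member, on the log2(FPKM + 1) scale with its 95% interval, ordered by size; filled circles were called. Mgst1 at 1.22 and Gstm1 at 1.17 lead the 8 called members, and 5 members from Gsto1 to Sod3 lie below 0.

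Of these interaction calls 4 held in every alternative fit. Gstm1, Mgst1, Gstm5 and Prdx1 were called in all 22 alternatives, while most alternatives ended the calls of the other 4. Mgst3 was lost in 12 of the 22, Nfe2l2 in 14, Ftl1 in 16 and Gstm2 in 17, and leaving out 1 library at a time ended them in 10, 9, 10 and 11 of 12 cases. Without replicate 2 of the Bmal1 siRNA TGFb group the estimates were 1.0 for Mgst1, 0.95 for Gstm1, 0.36 for Gstm5 and 0.26 for Prdx1. Then Mgst3 (0.46, adjusted p = 0.0626), Gstm2 (0.29, adjusted p = 0.0735), Ftl1 (0.28, adjusted p = 0.0699) and Nfe2l2 (0.21, adjusted p = 0.0622) missed the threshold, and Gclc was added (0.32, adjusted p = 0.0402). With median-of-ratios scaling 4 members were called more positive and Hmox1 more negative (-0.23), and the share of more positive among all called genes went from 61.6% to 42.2%.

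Markers of other cell types moved with TGFb too, some of them also with the siRNA, and their part in these results was not tested. In bulk RNA, fewer cells of a type and less RNA per cell cannot be told apart. The summed level of 6 mesothelial markers, all 6 above 0.5 FPKM, was 329 to 380 FPKM with scrambled siRNA and vehicle and 128 to 171 FPKM with TGFb. With Bmal1 siRNA it was 368 to 402 and 123 to 211 FPKM. Of 9 hepatocyte markers, Apoa1, Apob and Cyp2e1 stayed under 0.5 FPKM, Alb and Ttr are not analysed here, and the sum of the 6 in the table went from 199 to 220 down to 70.6 to 93.2 FPKM with scrambled siRNA, and from 214.5 to 250 down to 61.8 to 116.5 FPKM with Bmal1 siRNA. Leukocyte markers summed to 11.58 to 13.97 FPKM with vehicle and 8.52 to 10.09 FPKM with TGFb under scrambled siRNA. Under Bmal1 siRNA they summed to 7.86 to 8.67 and 7.34 to 8.89 FPKM, and Lyz2, Laptm5 and Itgam stayed under 0.5 FPKM. Endothelial markers summed to 80.3 to 84.6 FPKM with vehicle and 105 to 112 FPKM with TGFb under scrambled siRNA, and to 76.3 to 78.4 and 86.6 to 93.7 FPKM under Bmal1 siRNA, with Pecam1, Cdh5, Kdr and Stab2 under 0.5 FPKM. The sum of 6 cholangiocyte markers was 77.4 to 88.9 FPKM with vehicle and 212 to 231 FPKM with TGFb under scrambled siRNA, and Epcam stayed under 0.5 FPKM. Under Bmal1 siRNA that sum was 82.0 to 93.3 and 105 to 189 FPKM. With TGFb, the endothelial and cholangiocyte sums of the 2 siRNAs did not overlap, and both were lower with Bmal1 siRNA. The sum of the 12 stellate markers in the table did the same. It was 6561 to 6926 FPKM with scrambled and 6011 to 6234 FPKM with Bmal1 siRNA, against 4881 to 5259 and 5256 to 5571 FPKM with vehicle. With vehicle, the leukocyte and endothelial sums of the 2 siRNAs did not overlap either, and both were again lower with Bmal1 siRNA.

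Members with the TGACNNNGC core were called at rates given here as counts, beside the shares over all genes, and members with and without a match were not tested against each other. With scrambled siRNA, TGFb lowered 9 of the 11 members with a match and raised none. It lowered 15 and raised 2 of the 25 tested members that had a window without one. Over all genes, 29.1% were called lower and 16.4% higher. The median changes with and without a match were -0.34 and -0.26. For the interaction, 4 of the 11 and 4 of the 25 were called more positive, with medians of 0.25 and 0.19. Over all genes, 8.86% were called more positive and 5.52% more negative.

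The partners and regulators of NRF2 did not follow Nfe2l2 in one direction. Of 14 tested, TGFb raised 6 and lowered 3 with scrambled siRNA, beside 16.4% and 29.1% of all genes. Nfe2l1, the related factor that restores proteasome genes, rose by 0.51 (adjusted p = 2.3e-06) and Mafk, a small MAF partner, by 0.32 (adjusted p = 0.00966), while Nfe2l3, the third of the family, fell by 0.81 on the log2 scale (adjusted p = 0.00029) and Rbx1, of the KEAP1 ubiquitin ligase, by 0.23 (adjusted p = 0.0127). With Bmal1 siRNA, TGFb raised 3 and lowered 1, beside 8.90% and 10.1% of all genes, with Nfe2l1 at 0.23, Pgam5 at 0.23 and Dpp3 at -0.12. Under TGFb the siRNA raised 1, Nfe2l3 (0.59), and lowered 3, led by Mafk (-0.41) and Maff (-0.37). The shares over all genes were 16.0% higher and 7.16% lower. The interaction called 1, Nfe2l1 (-0.28), beside 8.86% of all genes more positive and 5.52% more negative.

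Of 17 further NRF2 targets tested, TGFb lowered 10 and raised 2 with scrambled siRNA, where 29.1% of all genes were called lower and 16.4% higher. With Bmal1 siRNA it lowered 6 and raised 1, beside 10.1% and 8.90% of all genes. Osgin1, an oxidative stress-induced growth inhibitor, read 35.1, 30.0 and 33.1 FPKM with scrambled siRNA and vehicle and 10.2 FPKM in each of the 3 TGFb libraries (-1.59, adjusted p = 1.31e-08). After Bmal1 siRNA it read 27.8, 24.1 and 24.3 FPKM with vehicle and 19.2, 22.3 and 18.4 FPKM with TGFb (-0.33, adjusted p = 0.00888). Its interaction was 1.25 (adjusted p = 2.97e-05), and no TGFb library of one siRNA overlapped the other's. Of the 17, the interaction called 4 more positive and 1 more negative, beside 8.86% and 5.52% of all genes. The haem transporter Slc48a1 changed by -1.08 and -0.71 with scrambled and Bmal1 siRNA, Ugdh rose by 0.33 with scrambled siRNA and Abcc4 by 0.29 with Bmal1 siRNA. Under TGFb the siRNA raised 9 of 17 and lowered none, beside 16.0% and 7.16% of all genes, led by Osgin1 (0.90) and Ephx1, the microsomal epoxide hydrolase (0.52). Under vehicle none was called.

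The cystine and glutathione turnover genes split, with 6 raised and 4 lowered by TGFb of 12 tested under scrambled siRNA. Over all genes, 16.4% were raised and 29.1% lowered in that comparison. Slc7a11, the cystine transporter that feeds glutathione synthesis, rose by 0.97 but from a low level, 0.71, 1.07 and 1.04 FPKM to 3.17, 2.52 and 2.71 FPKM. Cth, which makes cysteine from cystathionine, rose by 1.38 (adjusted p = 1.48e-07) from 2.43 ± 0.45 to 7.86 ± 0.32 FPKM (SD, n = 3). Anpep, a peptidase that acts on glutathione breakdown products, rose by 1.54 (adjusted p = 2.88e-08). Oplah, which recovers glutamate from oxoproline, fell by 0.95 on the log2 scale, and Cbs, at the head of transsulfuration, by 0.78. With Bmal1 siRNA 5 rose, with Cth at 0.95 and Anpep at 0.83, and 2 fell, Oplah (-0.68) and Ggt7 (-0.26). Under TGFb the siRNA lowered 3, led by Anpep (-0.62) and Chac1 (-0.30), and raised 1, Cbs (0.52). The interaction was more negative for 3, led by Anpep (-0.71) and Cth (-0.42), and more positive for 2, Cbs (0.57) and Ggt7 (0.28). Over all genes, the called shares were 8.90% higher and 10.1% lower (TGFb, Bmal1 siRNA), 16.0% and 7.16% (siRNA, TGFb) and 8.86% and 5.52% (interaction).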

How the data were processed

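Expression was deposited by the authors as FPKM, per the file headers, in 1 table of 12 libraries with 2 decimals. The submitters' processing notes list mm10 as the build and, as tools of unstated role, RSEM, DESeq2, Bowtie2 2.2.5 and HISAT2 2.0.4. The sources used here do not say how strand was used. FPKM is scaled to each library, so a change in abundant genes shifts all others. RNA was discarded below an integrity of 6.0 and extracted with 1 of 2 kits, per the labels' protocols, which do not tie kits to samples.

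Of 16290 lines, 555 without an identifier (1.304% to 1.464% of a library's FPKM) and 15 repeats were left out, leaving 15720 identifiers. GENCODE M21 gave symbols and coordinates for 15694 of them. The test was limma 3.58.1 (R 4.3.3) on log2(FPKM + 1), two-sided, with an intensity trend and a group-means model over all 12 libraries (8 residual and 4.99 prior degrees of freedom), for the 11208 genes averaging 0.5 FPKM or more. Adjusted p-values, all from this test, are Benjamini-Hochberg values over these genes, and under 0.05 a gene was called. Log2 changes are on the log2(FPKM + 1) scale and so too small for low genes, and folds and percentages of a level are ratios of mean FPKM. The design assumed RPKM; FPKM takes the same test. Comparisons share libraries, so they are not independent of each other.

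All members may be named, and of each further list up to 2 called genes per direction with the largest change. 1 gene of the iron list, and that list's counts, are not reported here. The members and lists were chosen with earlier results of these data known. On simulated data with 200 of 11208 genes changed by a log2 of 0.5, the test recovered 82.5% (TGFb, scrambled siRNA), 83% (TGFb, Bmal1 siRNA), 88.5% (siRNA, vehicle), 84% (siRNA, TGFb) and 68.5% (interaction). The simulated libraries had independent noise, none stood apart, and the number of changed genes was fixed. These recoveries therefore do not give the power of the test in the real comparisons. Alternatives were pseudocounts of 0.1 and 5, no filter, a mean of at least 2 FPKM, 3 other scalings, a replicate block, only the groups compared, array weights, each library left out, and both second TGFb libraries left out.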

Additional observations from a re-analysis of the deposited data

Results flagged for a closer look

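For 8 members the response to TGFb differed between the siRNAs by the interaction test in limma, with the response after Bmal1 siRNA minus that after scrambled siRNA given on the log2(FPKM + 1) scale. The transferases Mgst1 (1.22, adjusted p = 0.00489), Gstm1 (1.17, adjusted p = 0.00305), Mgst3 (0.58, adjusted p = 0.0381), Gstm5 (0.45, adjusted p = 0.0128) and Gstm2 (0.37, adjusted p = 0.0475) were 5 of them. The others were the ferritin light chain Ftl1 (0.31, adjusted p = 0.0449), the peroxiredoxin Prdx1 (0.27, adjusted p = 0.0151) and Nfe2l2, which encodes NRF2 (0.26, adjusted p = 0.0408). Among all genes 14.4% were called, 8.86% more positive and 5.52% more negative. Gstm1, Mgst1, Gstm5 and Prdx1 kept the call in all 22 alternative fits, while Mgst3 lost it in 12, Nfe2l2 in 14, Ftl1 in 16 and Gstm2 in 17. In all 8 genes the mean with Bmal1 siRNA and TGFb lay above that with scrambled siRNA and TGFb. For Ftl1 that change was 0.10 and was not called, and its change with the siRNA under vehicle was larger, at -0.20, also not called.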

How the results depend on the processing

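No called member changed direction in any of the 23 alternatives (22 for the interaction). Calls held in all of them for 24 of 29 members (TGFb, scrambled siRNA), 7 of 14 (TGFb, Bmal1 siRNA), 8 of 12 (siRNA, TGFb) and 4 of 8 (interaction). Read depth is unknown, which limits what can be said of low genes such as Gsta4. Array weights called 23 members for TGFb with Bmal1 siRNA (4613 genes) and 2 for the siRNA under vehicle (1376 genes). They called 22 for the interaction (3012 genes) and 23 for the siRNA under TGFb (2645 genes higher, 1126 lower). The interaction called 4 members with no filter (808 genes more positive, 584 more negative). It called 5 with median-of-ratios scaling (577 and 789 genes) or quantile normalization (702 and 718 genes). Over all genes, the siRNA under vehicle called 7 with no filter and 229 with only the groups compared, and the siRNA under TGFb 1542 with only those groups. Leaving out both second TGFb libraries, 3246 genes were called for TGFb with Bmal1 siRNA, 414 for the siRNA under vehicle and 1489 for the siRNA under TGFb. The cause was not tested.

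Leaving out 1 library at a time gave 25 to 31 members (4385 to 5468 genes) for TGFb with scrambled siRNA, 7 to 18 (1171 to 3265) for TGFb with Bmal1 siRNA, 0 (2 to 472) for the siRNA under vehicle, 11 to 19 (1850 to 2921) for the siRNA with TGFb, and 4 to 12 (991 to 1872) for the interaction. For TGFb with Bmal1 siRNA the count was 7 without replicate 3 and 9 without replicate 1 of its TGFb group, and 9 without replicate 2 of its vehicle group. For the siRNA under TGFb it was 19 without replicate 1 of Bmal1 siRNA with TGFb. For the interaction it was 4 without replicate 3 of scrambled siRNA with TGFb or replicate 2 or 3 of Bmal1 siRNA with vehicle. It was 5 without replicate 1 or 2 of scrambled siRNA with vehicle, replicate 1 of scrambled siRNA with TGFb, replicate 1 of Bmal1 siRNA with vehicle, or replicate 2 or 3 of Bmal1 siRNA with TGFb.

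The labels number the replicates but tie no numbers to a shared culture. Of 6 pairs of groups, 1 had every same-numbered correlation of deviations over 0.1 (range -0.16 to 0.47). In 20 of 36 checks a library correlated best with its own number, out of 3 libraries. These values do not settle whether same-numbered libraries belong together. Because no label pairs them, the numbers were not taken as pairs, and a replicate block was fitted as an alternative. With the replicate block 30 members were called for TGFb with scrambled siRNA (1946 genes higher, 3414 lower) and 17 for TGFb with Bmal1 siRNA (1216 higher, 1340 lower). It called 0 members for the siRNA under vehicle (540 genes) and 8 for the interaction (1195 genes more positive, 698 more negative). For the siRNA under TGFb it called 15 (2038 genes higher, 909 lower).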

Other observations

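Further redox lists were measured beside the members. Over all genes, TGFb lowered 29.1% and raised 16.4% with scrambled siRNA, and lowered 10.1% and raised 8.90% with Bmal1 siRNA. Under TGFb the siRNA raised 16.0% of all genes and lowered 7.16%. Of 19 other thioredoxin, glutaredoxin and repair genes, TGFb lowered 8 and raised 4 with scrambled siRNA. Glrx, the cytosolic glutaredoxin, read 17.0, 15.8 and 15.1 FPKM with vehicle and 8.99, 7.92 and 8.28 FPKM with TGFb (log2 change -0.85), and the stress-responsive Sesn3 changed by -1.06, while Sesn2 rose by 0.63 and Txnrd3 by 0.35. With Bmal1 siRNA 3 fell, led by Sesn3 (-0.62) and Sesn1 (-0.29), and Sesn2 rose (0.35). Under TGFb the siRNA raised 5, led by Sesn3 (0.61) and Glrx (0.51), and lowered Msrb3 (-0.16). The interaction of Glrx was 0.65 (adjusted p = 0.000782 in limma). Of 6 tested among other transferases and peroxidases, 3 fell and 1 rose with TGFb under scrambled siRNA, with Gstm7 at -1.22, Gstt3 at -0.47 and Gstcd at 0.21.

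Of 5 tested sources of reactive oxygen, TGFb lowered 3 under scrambled siRNA and raised 1, beside 29.1% and 16.4% of all genes. Maoa, the outer mitochondrial monoamine oxidase, changed by -1.15, Xdh, xanthine dehydrogenase, by -0.74, and Ero1l, an oxidase of the endoplasmic reticulum, by 0.71. Nox4 is not analysed here. Among genes of iron and haem handling, Ncoa4, which directs ferritin to degradation, fell with TGFb under scrambled siRNA (-0.28). Under TGFb the siRNA raised the iron exporter Slc40a1 (0.46). Of 14 other NADPH genes, 3 rose and 3 fell with TGFb under scrambled siRNA, and 3 rose and 1 fell under Bmal1 siRNA. Over all genes, 16.4% rose and 29.1% fell under scrambled siRNA, and 8.90% and 10.1% under Bmal1 siRNA. Aldh1l2, a mitochondrial folate enzyme, read 22.5, 28.8 and 28.8 FPKM with scrambled siRNA and vehicle and 60.7, 57.9 and 60.8 FPKM with TGFb (1.14). It was higher with the siRNA under vehicle (0.43), as was Mthfd1l (0.32), and both had a more negative TGFb response after it (-0.46 and -0.38). Of 6 genes of lipid peroxidation and ferroptosis, 3 fell with TGFb under scrambled siRNA, led by Lpcat3 (-0.62) and Aifm2 (-0.31), and none rose. The shares over all genes in that comparison were 29.1% lower and 16.4% higher.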
